A study of Mus musculus with 6 samples.

Results

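The neurotrophins and their receptors were followed as 8 genes in RNA-seq of primary hippocampal neuron cultures from WT (wild type) mice and from *Fmr1* KO (knockout) mice. The genes were the ligands *Bdnf*, *Ntf3* and *Ntf5*, the receptors *Ntrk2*, *Ntrk3* and *Ngfr*, and the sortilin family members *Sort1* and *Sorcs2*. They were picked by gene symbol, with earlier results of these data known, and each symbol had 1 locus among the 47086 loci of the table. The study had 3 WT and 3 *Fmr1* KO libraries of total RNA, all from C57BL/6 hippocampus and all at 14 days in vitro. The labels give no other allele and no treatment for either group. FMRP, the product of *Fmr1*, binds RNA and is missing in fragile X syndrome. According to the study's methods the cultures came from newborn mice, and the KO line was kept by crossing heterozygous females with WT males. The methods describe the KO mice as male, with WT littermates, and do not repeat the sex for the cultures. Which litter or culture each library came from is not stated, so the p-values measure the spread between these libraries only. The comparison asks whether transcript levels differ between the genotypes.

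Neurotrophins are secreted growth factors that are made as larger precursors (proneurotrophins) and cut to the mature form. The mature factors bind Trk receptor tyrosine kinases, which signal for survival, dendrite growth and synaptic strength. The precursors bind the p75 receptor together with a sortilin family coreceptor, a complex known for cell death and growth cone retraction. In the hippocampus, BDNF is made mainly by excitatory neurons in response to activity, and it acts on TrkB at synapses.

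Levels are given as FPKM, a fragment number scaled to transcript length and to the mapped fragments of the library, so that genes of different length can be compared. The read depth of each library is unknown. Among weakly expressed loci, the FPKM of WT replicate 1 divided by that of another library was most often 1.10 to 1.33, depending on that library, which gives only a relative scaling. Between 73.7 and 80.6% of the summed FPKM belonged to the noncoding RNA *Bc1*. Loci with a mean of at least 1 FPKM in either genotype were compared as log2(FPKM + 0.1) with limma and Benjamini-Hochberg adjustment over all 13195 of them, two-sided. The pseudocount shrinks the log2 change of weakly expressed genes. The median log2 change was 0.005. *Fmr1* had an FPKM of 19.0, 19.5 and 19.7 in WT and of 23.1, 21.8 and 18.5 in the libraries labelled *Fmr1* KO, so its transcript was not lower there. A whole-gene FPKM counts intact and disrupted transcripts alike and does not check the labels, on which each direction given here rests. The summed FPKM of 9 excitatory neuron markers was 867 to 909 in WT and 905 to 975 in *Fmr1* KO, and that of 9 astrocyte markers was 1735 to 2042 and 1794 to 1991. The cultures thus held glial as well as neuronal transcripts in both genotypes. For any transcript in such mixed cultures, fewer cells of a type and less RNA per cell cannot be told apart.

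The ligand transcript *Bdnf* showed the largest difference between the genotypes among the 6 genes that reached the minimum for the test. *Bdnf* encodes brain-derived neurotrophic factor, the main TrkB ligand of the hippocampus. The locus (XLOC_003632, chromosome 2, 109674700 to 109727043, forward strand, like all positions in GRCm38) holds 11 protein coding transcripts in GENCODE, with 9 different starts. Most of the gene's alternative first exons are joined to a shared coding exon, and the FPKM of the locus adds up the transcripts from all starts. An annotated antisense transcript (*Gm45346*) overlaps the locus, and because the library type is not given, reads of the opposite strand cannot be separated from those of *Bdnf*. Annotated genes on the opposite strand also overlap *Ntrk2*, *Ntrk3*, *Sort1* and *Sorcs2*, so the same limit applies to their FPKM. RefSeq lists 7 start windows of 300 bases for *Bdnf*, each from 250 bases before to 50 bases after a start. The 250 bases before the start are shown for a pair of them. The first window lies at the gene's 5′ end, and the other one shown precedes the exon commonly called IV, whose promoter is known for its response to calcium and CREB. They are shown because the measured *Bdnf* level pools these starts. Capitals mark TGACG on either strand, the core of the site that CREB binds.
Window at the first start, chr2:109674450-109674699, forward strand, GRCm38.p6: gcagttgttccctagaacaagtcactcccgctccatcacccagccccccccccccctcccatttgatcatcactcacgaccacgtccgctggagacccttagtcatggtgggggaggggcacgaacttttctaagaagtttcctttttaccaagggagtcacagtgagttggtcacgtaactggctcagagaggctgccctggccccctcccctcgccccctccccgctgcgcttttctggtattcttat
Window before exon IV, chr2:109692186-109692435, forward strand, GRCm38.p6: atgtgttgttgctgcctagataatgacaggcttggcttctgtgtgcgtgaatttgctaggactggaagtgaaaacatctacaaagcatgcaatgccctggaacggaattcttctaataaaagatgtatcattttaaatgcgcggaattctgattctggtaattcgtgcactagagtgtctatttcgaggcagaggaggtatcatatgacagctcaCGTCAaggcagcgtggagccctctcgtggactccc

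The window before exon IV held 1 match to TGACG, whose first base on the forward strand lies at position -35 from the start (the base before the start is position -1). No other of the 7 *Bdnf* windows held this motif, which occurs in 20.8% of all 32851 windows of this length. The full palindrome TGACGTCA, which contains TGACG, was in none of the 7 windows and in 1.79% of all windows. The E-box CACGTG, searched because the USF factors bind it, was in none of the 7 and in 7.15% of all. The window before exon IV held 12 CpG and the first window 11, against a median of 7 over all windows. These matches describe the sequence only, and the FPKM does not show which start was used. RefSeq windows were listed for 4 of the 8 genes, namely *Bdnf*, *Ntf3*, *Ntrk2* and *Ngfr*.

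*Bdnf* had an FPKM of 16.4, 15.0 and 13.4 in WT replicates 1, 2 and 3 and of 11.7, 10.6 and 10.1 in *Fmr1* KO replicates 1, 2 and 3. Each of the 3 *Fmr1* KO libraries lay below each WT library. The means were 15.0 ± 1.51 and 10.8 ± 0.800 (SD, n = 3 per genotype). The log2 change was -0.46 (standard error 0.09), which is 0.725 times the WT level with a 95% interval of 0.632 to 0.831. The unadjusted p was 0.000518 and the adjusted p was 0.0753 in limma, so *Bdnf* did not pass 0.05 over all loci. By exact permutation of the 6 libraries p was 0.1, the smallest that 3 libraries against 3 allow.

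**Figure D1:**
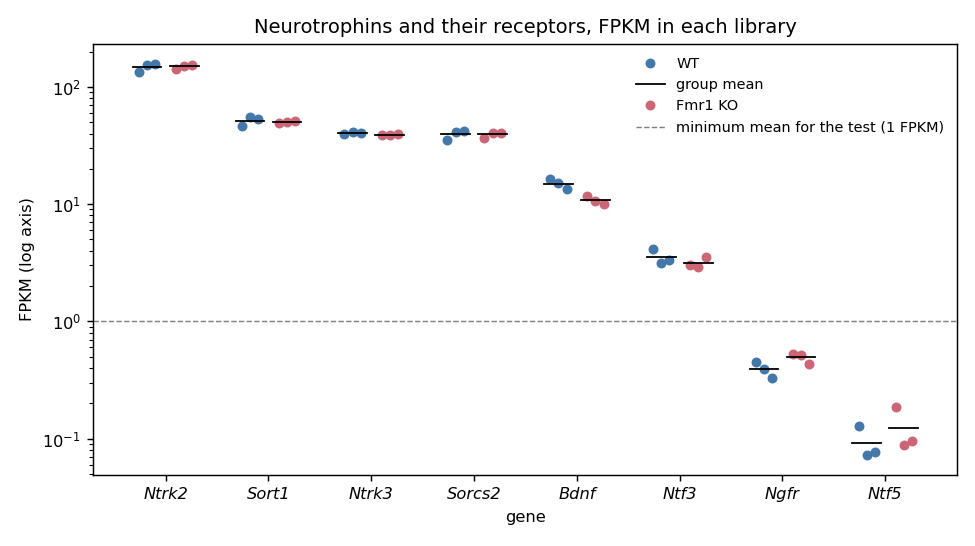
FPKM (vertical log axis) of the 8 genes in each WT and *Fmr1* KO library, with the group mean as a line and the minimum mean of 1 FPKM as a dashed line. *Ntrk2* was the most abundant gene, at 134 to 158 FPKM, and *Ntf5* stayed below 0.2 FPKM, while for *Bdnf* the *Fmr1* KO points all lie below the WT points.

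*Ntf3* encodes neurotrophin-3, the preferred ligand of TrkC. Its locus lies on chromosome 6 (126101412 to 126166791, reverse strand). *Ntf3* had an FPKM of 4.12, 3.17 and 3.35 in WT and of 3.02, 2.90 and 3.53 in *Fmr1* KO. The 2 groups overlapped, with *Fmr1* KO replicate 3 above 2 of the WT libraries. The log2 change was -0.16 (standard error 0.13, adjusted p = 0.600 in limma), 0.893 times the WT level with a 95% interval of 0.732 to 1.09. The interval includes no difference, and its lower end lies just above the *Bdnf* estimate of 0.725.

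*Ntf5* encodes neurotrophin-4/5, a further TrkB ligand, and was the weakest of the 8 genes. Among loci above 0 FPKM, 34.0% were lower than *Ntf5* in mean FPKM. Its locus is the shortest of the 8 (chromosome 7, 45413695 to 45417179, forward strand). The FPKM was 0.129, 0.0723 and 0.0769 in WT against 0.186, 0.0879 and 0.0950 in *Fmr1* KO. The groups overlapped, and replicate 1 was the highest library in both genotypes. *Ntf5* did not reach the minimum, and an exact permutation test of its log2 values gave p = 0.5.

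*Bdnf* therefore supplied most of the ligand transcript in every library. Its share of the summed FPKM of the 3 ligands was 79.4, 82.3 and 79.7% in WT against 78.5, 78.0 and 73.6% in *Fmr1* KO. The share of *Ntf3* was 17.3 to 19.9% in WT and 20.3 to 25.7% in *Fmr1* KO, which did not overlap. The sum of the 3 ligands was 16.8 to 20.7 FPKM in WT and 13.6 to 14.9 FPKM in *Fmr1* KO, again without overlap. These sums and shares carry no test of their own and follow the level of *Bdnf*.

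The Trk receptor transcripts were close to equal in the 2 genotypes. *Ntrk2* encodes TrkB, the receptor of BDNF and neurotrophin-4/5, which astrocytes express as well as neurons. The locus (chromosome 13, 58806569 to 59133970, forward strand) had 7 protein coding transcripts in GENCODE, with coding lengths of 1398 to 2463 bases. TrkB is made as a full-length kinase and as a truncated form without the kinase domain, and the FPKM of the locus does not separate them. *Ntrk2* had an FPKM of 134, 153 and 158 in WT and of 143, 151 and 154 in *Fmr1* KO. The *Fmr1* KO libraries all lay within the WT range. The log2 change was 0.01 (standard error 0.07, adjusted p = 0.949 in limma), with a 95% interval of 0.910 to 1.12 times the WT level.

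*Ntrk3* encodes TrkC, the receptor of neurotrophin-3. Its locus lies on chromosome 7 (78179986 to 78579180, reverse strand) and is the longest of the 8 genes, with 6 protein coding transcripts of 248 to 2592 coding bases. *Ntrk3* had an FPKM of 39.6, 41.3 and 40.1 in WT and of 38.9, 38.5 and 39.5 in *Fmr1* KO. It varied least of the 8 genes, with a coefficient of variation of 2.08% in WT and 1.33% in *Fmr1* KO. The *Fmr1* KO libraries lay just below the WT libraries without overlap, and the difference was small, at -0.05 on the log2 scale (standard error 0.04, adjusted p = 0.657 in limma). The 95% interval was 0.901 to 1.04 times the WT level.

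With *Bdnf* lower and *Ntrk2* level, the ratio of *Ntrk2* to *Bdnf* FPKM was 8.17, 10.2 and 11.8 in WT against 12.2, 14.3 and 15.2 in *Fmr1* KO. The ratio of *Ntrk2* to *Ntrk3* overlapped between the genotypes, at 3.39 to 3.94 in WT and 3.67 to 3.93 in *Fmr1* KO. The summed level of both Trk transcripts was 174 to 198 FPKM in WT and 182 to 194 FPKM in *Fmr1* KO.

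**Figure D2:**
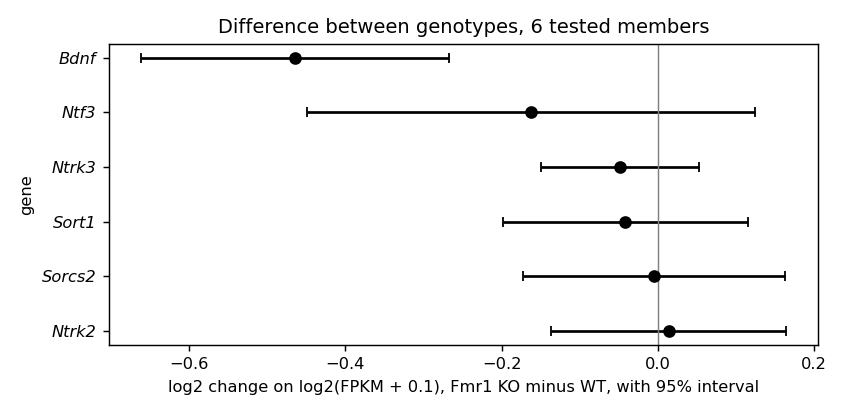
Log2 change (horizontal axis, *Fmr1* KO minus WT on log2(FPKM + 0.1)) of the 6 tested genes, with points for the limma estimate and bars for its 95% interval. The interval of *Bdnf*, -0.66 to -0.27, excludes 0 without adjustment for the number of loci, and those of the other 5 genes include 0.

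*Ngfr* encodes the p75 receptor, which binds all neurotrophins and their precursors, and was weakly expressed. Its locus (chromosome 11, 95568818 to 95587698, reverse strand) has 1 annotated transcript. The FPKM was 0.451, 0.389 and 0.332 in WT against 0.524, 0.521 and 0.436 in *Fmr1* KO. The groups overlapped by 1 library on each side, since *Fmr1* KO replicate 3 lay below WT replicate 1. An exact permutation test gave p = 0.2. Without an FPKM minimum the log2 change was 0.28 with a 95% interval of -0.23 to 0.78 (adjusted p = 0.731 in limma), and on this scale it understates the ratio of the FPKM. The transcript of the p75 receptor was thus far below that of TrkB, with *Ntrk2* to *Ngfr* ratios of 298 to 476 in WT and 272 to 353 in *Fmr1* KO.

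*Sort1* encodes sortilin, which is the coreceptor of p75 for proneurotrophins and also sorts BDNF inside the cell. Its locus lies on chromosome 3 (108284053 to 108361519, forward strand). *Sort1* had an FPKM of 46.1, 55.0 and 53.6 in WT and of 48.9, 49.8 and 51.2 in *Fmr1* KO, all within the WT range. The log2 change was -0.04 (standard error 0.07, adjusted p = 0.833 in limma), with a 95% interval of 0.872 to 1.08 times the WT level.

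*Sorcs2* encodes a sortilin relative that binds proBDNF together with p75 and also associates with TrkB. Its locus (chromosome 5, 36017180 to 36398163, reverse strand) holds the small gene *Psapl1* on the opposite strand. *Sorcs2* had an FPKM of 35.5, 41.4 and 41.8 in WT and of 37.0, 40.6 and 40.6 in *Fmr1* KO, again within the WT range. The log2 change was -0.0048 (standard error 0.07, adjusted p = 0.983 in limma), with a 95% interval of 0.887 to 1.12 times the WT level. In both genotypes replicate 1 was the lowest library for *Sort1*, *Sorcs2* and *Ntrk2*.

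The order of the levels was the same in the 2 genotypes except at 1 place. *Ntrk2* was the highest in all 6 libraries and made up 48.5 to 51.4% of the summed FPKM of the 8 genes, followed by *Sort1*. *Ntrk3* and *Sorcs2* did not differ beyond their spread, with *Ntrk3* above *Sorcs2* in 2 of the 6 libraries. *Bdnf*, *Ntf3*, *Ngfr* and *Ntf5* followed in this order, and in each of these neighbouring pairs the lowest value of the higher gene exceeded the highest value of the lower gene. Among loci above 0 FPKM, 98.8% were lower than *Ntrk2* in mean FPKM, 79.5% were lower than *Bdnf*, and 46.3% were lower than *Ngfr*.

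Of the 8 genes, none was called at an adjusted p below 0.05 in limma, where 0.265% of all tested loci were called, 0.0909% higher and 0.174% lower. Of the 6 tested genes, 1 had an unadjusted p below 0.05, *Bdnf*, where 14.8% of all loci had such a p. The libraries of the 2 genotypes were separated in 2 of the 6 genes, *Bdnf* and *Ntrk3*, as they were in 21.1% of all loci. Both were lower in *Fmr1* KO, as were 10.3% of all loci. The median log2 change of the 6 genes was -0.05, and 5 of the 6 estimates were below 0.

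Genes that act with the neurotrophins were described by 7 lists of 147 genes, of which 127 were tested. The lists were chosen with earlier results of these data known, so their counts are descriptions and not tests. Only *Vgf* and *Nptx2* of the 127 genes passed an adjusted p of 0.05 in limma, both lower in *Fmr1* KO, where 0.174% of all loci were called lower. Both belong to the list of transcripts known to rise with BDNF or with neuronal activity. In that list 8 of 18 tested genes had an unadjusted p below 0.05, all lower, where 7.77% of all loci were lower. Its median log2 change was -0.20, and 15 of its 18 estimates were below 0. At a mean under 1 FPKM, *Egr2* and *Fosb* were not tested.

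*Vgf* encodes a secreted neuropeptide precursor that neurotrophins induce. It lies on chromosome 5 (137025302 to 137033351). *Vgf* had an FPKM of 103, 105 and 94.9 in WT and of 65.6, 54.9 and 59.2 in *Fmr1* KO. It fell by 0.75 on the log2 scale (standard error 0.07, adjusted p = 0.00374 in limma), to 0.594 times the WT level. *Nptx2* encodes neuronal pentraxin 2, which clusters AMPA receptors at excitatory synapses. It had an FPKM of 5.87, 6.84 and 5.86 in WT and of 3.84, 3.78 and 3.17 in *Fmr1* KO, and fell by 0.77 on the log2 scale (standard error 0.10, adjusted p = 0.0306 in limma). With any 1 library left out, the adjusted p of *Nptx2* was 0.0537 to 0.101 and that of *Vgf* was 0.00567 to 0.0282. Without an FPKM minimum the adjusted p of *Nptx2* was 0.133, and without the mean-variance trend it was 0.0600.

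The other 6 genes of this list at an unadjusted p below 0.05 are named after their values were seen. The neuropeptide gene *Npy* and the granin gene *Scg2* had log2 changes of -0.19 and -0.22, with adjusted p of 0.131 and 0.130 in limma. The MAP kinase phosphatase gene *Dusp4* had -0.30, the transcription factor genes *Nr4a1* and *Egr3* had -0.31 and -0.34, and *Arc*, which acts in AMPA receptor endocytosis, had -0.28. Their adjusted p were 0.206 to 0.222 in limma. Of the 6 genes, only in *Egr3* did the libraries of the genotypes overlap, where 10.3% of all loci were separated and lower. The 6 were picked by their p, which favours separated libraries. *Fos*, also chosen after its values were seen, had a mean FPKM of 6.85 ± 0.389 for WT and 5.98 ± 0.736 for *Fmr1* KO (SD, n = 3), with an adjusted p of 0.392 in limma.

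**Figure D3:**
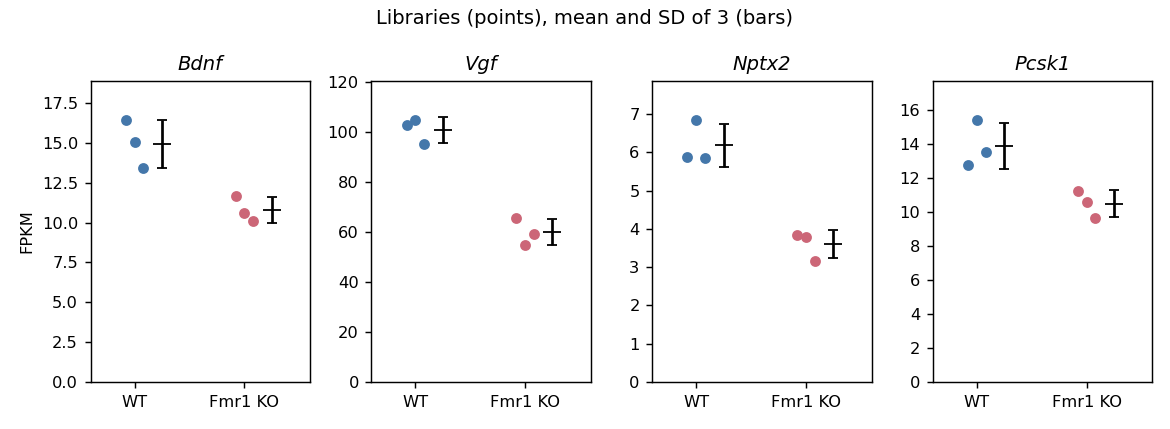
FPKM (vertical axes from 0) of *Bdnf*, *Vgf*, *Nptx2* and *Pcsk1* in each library (points), with the mean and SD of the 3 libraries per genotype (bars). In each of the 4 genes the *Fmr1* KO points lie below the WT points, as in 10.3% of all loci, and *Vgf* and *Nptx2* passed the adjusted test. *Vgf*, *Nptx2* and *Pcsk1* were picked from their lists by their low p, which favours separated libraries.

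Genes that sort and cut the precursors had no call in 13 tested genes, with an unadjusted p below 0.05 for 5 lower genes and no higher one, where 7.77% of all loci were lower and 6.99% higher. Their median log2 change was -0.04. *Pcsk1*, a proprotein convertase of the regulated secretory pathway, had an FPKM of 12.7, 15.4 and 13.5 in WT and of 11.2, 10.6 and 9.63 in *Fmr1* KO. The groups did not overlap, and the log2 change was -0.40 (standard error 0.09, adjusted p = 0.101 in limma). *Hap1*, which takes part in proBDNF transport, and *Serpini1*, an inhibitor of tissue plasminogen activator, had log2 changes of -0.19 and -0.15, with adjusted p of 0.189 and 0.236 in limma. *Furin*, the convertase of the constitutive pathway, had 9.33 ± 0.977 FPKM for WT and 9.65 ± 0.433 for *Fmr1* KO (SD, n = 3). *Cpe*, a sorting receptor for BDNF, had 1577 ± 52.6 and 1601 ± 18.9 (SD, n = 3). *Furin* and *Cpe* are given for their roles and were chosen after their values were seen.

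Of the other ligands, receptors and coreceptors, none of 9 tested genes was called, and the median log2 change was -0.01. The lowest p of this list were those of *Islr2* (log2 change 0.19), which modulates Trk signalling, of the sortilin relative *Sorcs3* (-0.16) and of *Lrig1* (0.21), with adjusted p of 0.221 to 0.275 in limma.

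None of the signalling genes below the receptors was called. Among the Trk adaptors and effectors, 2 of 31 tested genes had an unadjusted p below 0.05, both higher, where 6.99% of all loci were higher, and the median log2 change was 0.03. The lowest p were those of the phosphatase gene *Ptpn1* (log2 change 0.16), the adaptor gene *Sh2b3* (0.18) and the phospholipase gene *Plcg1* (0.23), with adjusted p of 0.225 to 0.347 in limma. For the p75 adaptors and processing enzymes, 2 of 19 tested genes had an unadjusted p below 0.05, 1 higher and 1 lower, where 6.99% and 7.77% of all loci did. The median log2 change was -0.02. These were *Adam10*, a sheddase (0.14), and *Psen2*, a subunit of gamma-secretase (-0.18). The next lowest p was that of *Bex1* (-0.16), and the 3 adjusted p were 0.256 to 0.365 in limma.

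Among the regulators of *Bdnf* transcription, an unadjusted p below 0.05 was found for 4 higher genes and 1 lower gene of 25 tested, where 6.99% of all loci were higher and 7.77% lower. None was called, and the median log2 change was 0.04. *Crtc1* and *Crtc2*, coactivators of CREB, had log2 changes of 0.15 and 0.23, and the repressor gene *Bhlhe40* had -0.21, with adjusted p of 0.211 to 0.252 in limma. *Creb1* itself had 9.50 ± 0.310 FPKM for WT and 10.4 ± 0.137 for *Fmr1* KO (SD, n = 3; adjusted p = 0.320 in limma). *Npas4*, an activity-induced activator of *Bdnf*, had 1.67 ± 0.124 and 1.54 ± 0.223 (SD, n = 3; adjusted p = 0.786 in limma). *Creb1* and *Npas4* are named after their values were seen. In the GDNF and CNTF families, the other neurotrophic factors, none of 12 tested genes had an unadjusted p below 0.05, and the lowest p were those of *Ret*, *Lif* and *Il6st*, with adjusted p of 0.462 to 0.676 in limma.

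**Figure D4:**
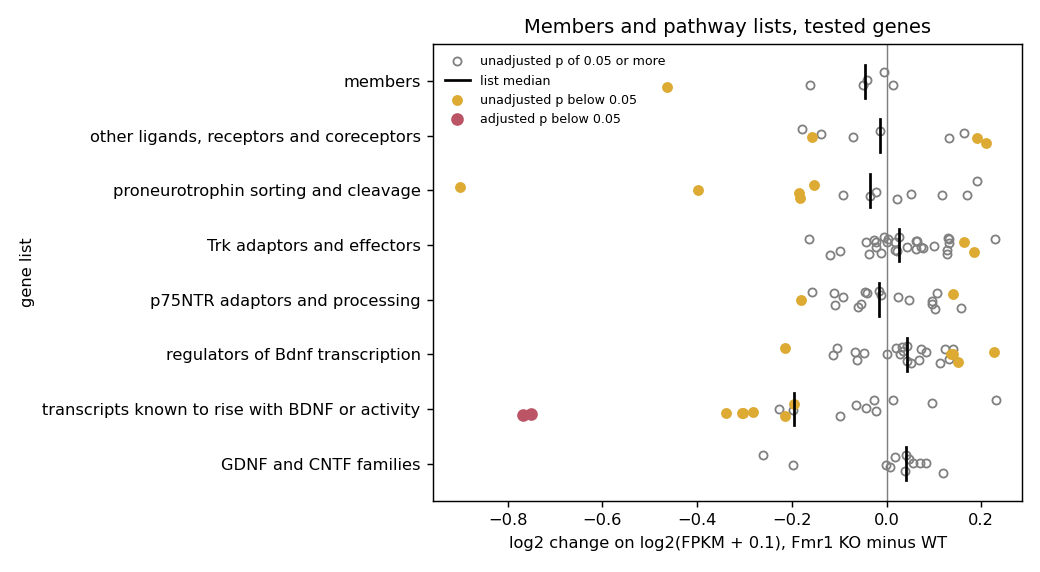
Log2 change (horizontal axis, *Fmr1* KO minus WT) of each tested gene of the 8 genes (members) and of the 7 pathway lists, with the list median as a bar and colour for the limma p. The list of transcripts that rise with BDNF or activity has its median at -0.20 and holds the 2 genes at an adjusted p below 0.05. The lists were chosen with earlier results of these data known.

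The locus most like *Bdnf* over the 6 libraries was *Bsg*, with a Pearson r of 0.997 on log2(FPKM + 0.1), followed by *Gm9001* (0.996), *Bcap29* (0.994), *Phyhip* (0.993) and *4930447C04Rik* (0.992). All 5 were lower in *Fmr1* KO without overlap, as were 10.3% of all loci, and none was called. Their log2 changes were -0.18 to -0.49. Because they were picked for their likeness to *Bdnf*, which was itself lower without overlap, this direction was largely fixed in advance. With 6 libraries from 2 genotypes, 407 of 13194 loci (3.08%) had an r above 0.9, so a high r is common here. *Vgf* had an r of 0.953 and *Nptx2* of 0.922 with *Bdnf*, and the highest r of the other tested members was 0.627 for *Ntrk3*.

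The tested loci on either side of *Bdnf* did not share its direction. *Kif18a*, a kinesin gene 332950 bases before it, had 2.01 FPKM in WT and 2.28 in *Fmr1* KO (adjusted p = 0.672 in limma). *Lin7c*, a scaffold gene 163834 bases after it, was at 41.3, 40.4 and 42.3 FPKM in WT against 47.0, 44.2 and 43.8 in *Fmr1* KO, a difference of 0.12 on the log2 scale (adjusted p = 0.306 in limma).

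Summed markers of some cell types lay apart between the genotypes, as *Bdnf* did. The summed FPKM of 10 microglia markers was 7.23 to 9.49 in WT and 1.49 to 3.23 in *Fmr1* KO, and *Aif1* was listed at 0 in every library. The 4 of 10 that were tested reached the minimum of 1 FPKM only through their WT mean. Their lower direction was therefore fixed by that minimum. All 4 had an unadjusted p below 0.05 in limma, where 7.77% of all loci were lower at such a p. *Lyz2* (named after its values were seen) was called. The summed FPKM of 9 proliferation genes was 60.1 to 64.8 in WT and 72.3 to 73.9 in *Fmr1* KO. The sum of the 9 inhibitory neuron markers overlapped, at 320 to 339 and 301 to 350, and so did that of the astrocyte markers. Single markers within these sums differed at an unadjusted p below 0.05 and none was called. Of the inhibitory markers *Dlx1*, *Dlx2* and *Lhx6* had log2 changes of 0.38, 0.57 and 0.34 and *Vip* had -0.40, and of the astrocyte markers *S100b* had -0.36 and *Gja1* -0.19. These markers and *Dcn* are named after their values were seen. The sum of the 10 oligodendrocyte lineage markers was 372 to 433 in WT and 416 to 465 in *Fmr1* KO. Among them *Olig2* and *Pdgfra*, also named after their values were seen, had log2 changes of 0.25 and 0.29. Both had an unadjusted p below 0.05 in limma, no marker of this list was lower at such a p, and none was called. The sum of 9 fibroblast and mural cell markers was 47.8 to 52.5 and 39.1 to 47.1, and *Dcn* made up most of it. Without *Dcn* the sum of the other 8 overlapped, at 8.44 to 8.85 and 8.17 to 9.03. For 8 endothelial markers, of which *Cldn5* was listed at 0, it was 2.75 to 2.86 and 1.73 to 2.40. *Kdr*, named after its values were seen, was the only one of them tested. Its mean was 1.04 FPKM in WT and 1.02 in *Fmr1* KO, so the gap in the sum came from markers below the minimum of 1 FPKM. The excitatory neuron marker *Prox1*, a gene of dentate granule cells singled out after its values were seen, had 11.8, 13.3 and 11.9 FPKM in WT against 10.2, 9.49 and 10.4 in *Fmr1* KO, a difference of -0.29 on the log2 scale (adjusted p = 0.130 in limma). The part of these cell types in the level of *Bdnf* was not tested.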

How the data were processed

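Total RNA of 3 WT and 3 *Fmr1* KO cultures was sequenced by the authors, who used Fastx Clipper for adapters, sickle for trimming, a filter against junk sequence, TopHat2 for alignment to GRCm38, Cufflinks for gene models and Cuffdiff for the comparison. Versions, annotation, strandedness and library scaling were not given in the sources used here. Each library's FPKM stand in the table the authors deposited, and its group means, fold changes, p-values and q-values were not used. Loci with several rows were taken once. Table starts count from 0 and are printed from 1.

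FPKM are not counts, so limma 3.58.1 in R 4.3.3 was fitted on log2(FPKM + 0.1) with genotype as the only term and a mean-variance trend, for loci with a mean of at least 1 FPKM in either genotype. The fit was tested on simulated data. Single values were compared by exact permutation (scipy 1.17.1), and motifs were searched in RefSeq windows (GRCm38.p6). Transcripts were counted in GENCODE M21. Without counts, no counting interval is given. Some list genes are not reported here.

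The genes and lists were chosen with earlier results of these data known. Named genes were the 8 members, *Fmr1*, the called genes of each list or otherwise its 3 genes of lowest p, the 5 loci most correlated with *Bdnf* and the loci next to a member at an unadjusted p below 0.05. Other genes named were chosen after their values were seen. Alternatives were other pseudocounts and FPKM minima, centring, no trend, removal of a gene span trend (lowess span 0.3), a replicate block and each library left out.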

Additional observations from a re-analysis of the deposited data

How the results depend on the processing

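The change of *Bdnf* kept its direction under all 14 alternatives, with log2 changes of -0.54 to -0.39 and adjusted p of 0.0293 to 0.250 in limma. It passed 0.05 in 1 of them, the fit with the replicate block (log2 change -0.46), and that fit called 1 of the 8 genes. The numbers are not shown to pair the samples: deviations of same-numbered libraries correlated at 0.243, 0.0577 and 0.0801, and WT replicate 2 correlated best with *Fmr1* KO replicate 3. With the replicate block, 29 loci were higher and 36 lower, against 12 and 23 without it. The cause was not tested.

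The sign of 3 genes near 0 turned when 1 library was left out. *Ntrk2* was at -0.056 without WT replicate 1 and -0.0089 without *Fmr1* KO replicate 3, in a leave-one-out range of -0.056 to 0.061. *Sort1* was at 0.0072 without WT replicate 2 (-0.12 to 0.0072). *Sorcs2* was at 0.03 without WT replicate 2, 0.037 without WT replicate 3 and 0.04 without *Fmr1* KO replicate 1 (-0.082 to 0.040). The ranges were -0.25 to -0.05 for *Ntf3*, 0.0026 to 0.33 for *Ntf5*, -0.06 to -0.03 for *Ntrk3* and 0.19 to 0.37 for *Ngfr*, which was at 0.10 with a pseudocount of 1. *Ntf3*, *Ngfr* and *Ntf5* gave no value at an FPKM minimum of 5. Without WT replicate 1, 4 genes had separated libraries, and 2 to 4 did with any 1 library left out. With a library left out, groups separate by chance more easily than with all libraries. No share of all loci is given for these settings, so these counts say nothing about these genes in particular.

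Of the list genes, 1 was called with no FPKM minimum, 1 with no mean-variance trend and 1 with any library left out (1 to 1), *Vgf* in each case. Loci called higher numbered 6 with no FPKM minimum, 20 at a minimum of 5, 7 with no trend, 25 with the gene span trend removed and 4 to 8 with a library left out. Loci called lower numbered 9 with no minimum, 14 with no trend and 10 to 14 with a library left out. Without counts the read depth is unknown, and genes below 1 FPKM, such as *Ntf5* and *Ngfr*, are the least certain.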
